A study of Mus musculus with 6 samples.

Results

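The BCL2 family genes described here are 10 apoptosis genes of the mouse: the pro-survival genes Bcl2, Bcl2l1 and Mcl1, the effector genes Bax and Bak1, and the BH3-only genes Bcl2l11, Bbc3, Pmaip1, Bid and Bad. They were taken by name. All 10 were found among the 23337 genes of the count table, and all 10 were among the 13272 genes that passed the filter on low counts. BCL2 family proteins decide whether the outer membrane of the mitochondrion is opened, which releases cytochrome c and starts the caspases. BH3-only proteins sense stress and bind the pro-survival proteins or the effectors, the pro-survival proteins hold the effectors in check, and BAX and BAK form the pores. Blood progenitors and leukaemia cells are known to depend on MCL1, BCL2 and BCL-XL, and drugs that mimic the BH3 segment are used against leukaemia.

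RNA came from sorted leukaemia initiating cells (LICs), the cells that can start the leukaemia again, of adult (replicates 1, 2 and 4) and neonatal (replicates 4, 7 and 8) mouse leukaemias, with haematopoietic stem and progenitor cells named as their source. The labels give no genotype, strain, oncogene, treatment or exact age, and nothing in them ties a replicate to an animal of its own. The p-values thus cover the spread between these samples alone, and that spread may be technical. The series was set up to find transcriptional differences between adult and neonatal LICs. These were bulk samples, in which fewer cells of a type and less RNA per cell cannot be told apart.

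The adult libraries held 60113466 to 65183188 counts, neonatal replicates 7 and 8 held 64712241 and 66132051, and neonatal replicate 4 held 3932833. Neonatal replicate 4 also stood apart by transcript length. Relative to the mean of neonatal replicates 7 and 8 its median log2 difference was 0.60 over the 4427 genes with at most 2034 exon bases and -0.80 over the 4423 genes with at least 3605 exon bases. It was the highest or the lowest of the 6 libraries for 6 of the 10 family genes, a share of 60%, against 60.6% of all genes tested. The fold changes of the 10 and of the other named genes are therefore given with and without it. Ddx3y on chromosome Y was at 98.8 to 154 CPM (the count over the TMM-scaled library size) in adult and at most 0.0148 CPM in neonatal libraries. Xist was at 0.610 to 0.919 CPM in adult and 51.7 to 186 CPM in neonatal libraries, so age group and sex cannot be told apart in these libraries. Ptprc, the common leukocyte antigen gene, was at 263 to 323 CPM in adult and 144 to 271 CPM in neonatal libraries. Of the leukaemic progenitor list, 9 of 10 genes were in the table, 4 with a positive and 5 with a negative log2 fold change (median -0.14, and -0.43 without neonatal replicate 4). The list summed to 2960 to 12526 CPM in adult and 3486 to 4025 CPM in neonatal libraries. Mpo made up most of the sum in adult replicate 4. It was at 10368 CPM there, 1874 and 1097 CPM in adult replicates 1 and 2, and 61.0 to 1980 CPM in neonatal libraries. Within that list Flt3, a receptor gene of early progenitors, was at 4.58 to 19.4 CPM in adult and 256 to 1231 CPM in neonatal libraries, while Mpo and Hoxa9 had positive log2 fold changes of 2.30 and 0.63. The B cell list summed to 28.5 to 69.4 CPM in adult and 71.98 to 147 CPM in neonatal libraries, nearly all of it Cd79b, with Ms4a1 and Pax5 at 0 counts in all 6. The T and NK cell list summed to 1.22 to 3.29 CPM in adult and 1.71 to 2.39 CPM in neonatal libraries, with Cd3e, Cd3g and Cd4 at 0 and Cd3d, Lck and Klrb1c counted in all 6.

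The feature that joins the family is the BH3 segment, a short helix through which its members bind each other. The stretches that encode it are shown because genes of every role carry this segment. Pmaip1 was left out of this search, so its absence from the listing says nothing about its segment. They were taken from GENCODE transcript sequences (mm10, the build of the counts) and run 5′ to 3′ on the coding strand. Each has 48 bases, and the capitals mark the 6 codons of the core, which begins with leucine and ends with aspartate.
Bcl2 (chr1:106712569-106712616, minus strand, exon 1): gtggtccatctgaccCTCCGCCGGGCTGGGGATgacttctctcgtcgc
Bcl2l1 (chr2:152829691-152829738, minus strand, exon 2): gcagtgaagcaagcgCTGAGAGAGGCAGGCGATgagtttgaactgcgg
Mcl1 (chr3:95659421-95659468, plus strand, exon 1): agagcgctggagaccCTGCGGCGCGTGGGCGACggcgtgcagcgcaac
Bax (chr7:45465991-45466038, minus strand, exon 3): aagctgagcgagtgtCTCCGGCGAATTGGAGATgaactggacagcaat
Bak1 (chr17:27022525-27022572, minus strand, exon 4): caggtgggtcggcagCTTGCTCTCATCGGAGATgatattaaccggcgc
Bcl2l11 (chr2:128147135-128147182, plus strand, exon 3): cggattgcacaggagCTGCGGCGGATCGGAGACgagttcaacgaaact
Bbc3 (chr7:16313758-16313805, plus strand, exon 3): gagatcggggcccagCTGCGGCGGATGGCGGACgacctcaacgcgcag
Bid (chr6:120897283-120897330, minus strand, exon 4): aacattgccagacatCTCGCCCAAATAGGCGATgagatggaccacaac
Bad (chr19:6950777-6950824, plus strand, exon 3): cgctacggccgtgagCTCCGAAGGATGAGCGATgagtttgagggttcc
Among these 9 stretches the closest pair was Bcl2l11 and Bbc3, with 29 of 48 bases and 15 of the 18 core bases identical, and their log2 fold changes had opposite signs. Bcl2 and Bid shared 16 of 48 bases. Of the 10 genes, Bad alone overlaps exons of another gene, sharing 517 exon bases with Gpr137 on the opposite strand. The library kit does not mark strand, and reads in that overlap could not be given to either gene, so the Bad values are uncertain.

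The log2 fold changes of the 10 lay on both sides of 0, with intervals too wide to show balance, and Bbc3 stood furthest from 0. Bbc3 encodes PUMA, a BH3-only protein induced by p53 and by loss of growth factors, and it was lower in adult LICs, at 5.65 ± 2.39 CPM in the adult libraries, against 17.2 ± 10.1 CPM in the neonatal ones (SD, n = 3 each). Bcl2 came next, with 2 of the 3 adult libraries far under each neonatal library and the other inside the neonatal range. Mcl1, Bax, Bcl2l1 and Pmaip1 had log2 fold changes (adult minus neonatal, throughout) between 0.02 and 0.20. With edgeR's quasi-likelihood test adjusted over all genes, 0 of the 10 passed the threshold of 0.05, against 0.0527% of all genes tested (0.0377% higher and 0.0151% lower in adult LICs). Chromosomes X and Y hold none of the 10, and with those chromosomes left out edgeR called 0 of 12848 genes. At an unadjusted p under 0.05, edgeR gave 1 of 10, against 11.9% of all genes. DESeq2 called 0 of 10, against 5.75% of all genes, limma voom 0, against 0.0527%, and limma voom with library quality weights 1, against 7.96%. Without neonatal replicate 4 edgeR again called 0 of 10, against 5.98% of all genes, with 1 at an unadjusted p under 0.05 against 29.5% of all genes. DESeq2 then called 1, against 25% of all genes, and limma voom 0, against 6.7%. A single call among 10 genes is near or under those shares.

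**Figure D1:**
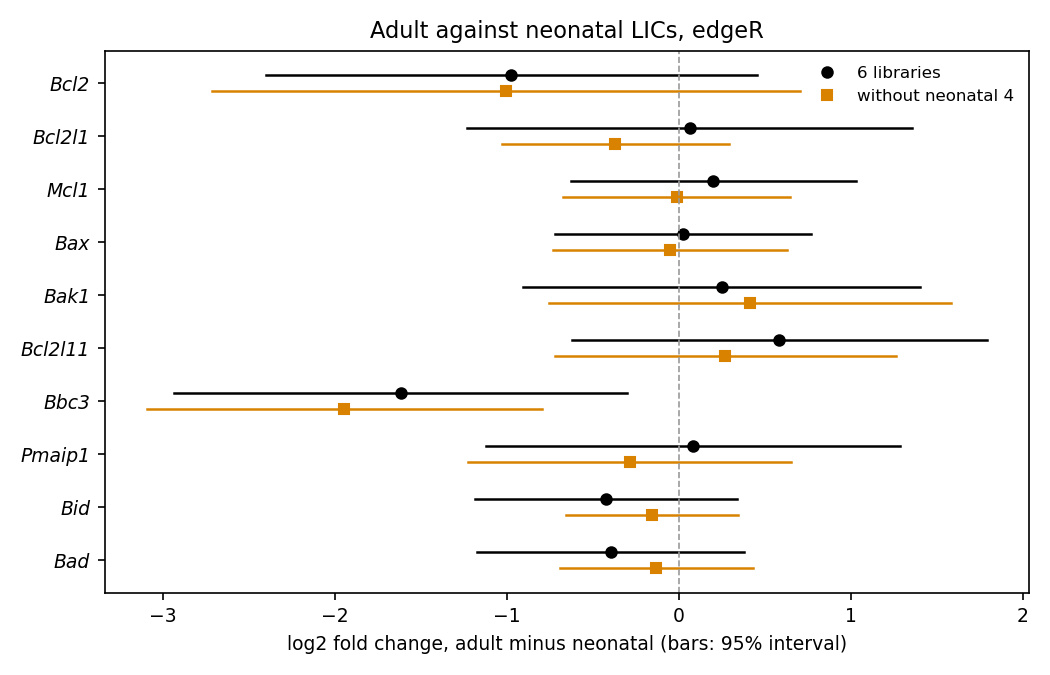
Log2 fold change of each BCL2 family gene, adult minus neonatal LICs, from edgeR on 6 libraries (black) and without neonatal replicate 4 (orange), with bars for the 95% interval. Bbc3 is the gene whose intervals lie wholly under 0, from -2.93 to -0.30 on 6 libraries and from -3.09 to -0.80 without neonatal replicate 4; adjusted over all genes it passed in neither fit.

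The median absolute log2 fold change of the 10 was 0.32, against 0.44 over all genes tested, and 0.28 against 0.58 without neonatal replicate 4. On 6 libraries 6 of the 10 had a positive log2 fold change (median 0.04, against -0.05 over all genes), and without neonatal replicate 4 this was 2 of 10 (median -0.15, against 0.05 over all genes). The CPM of the groups did not overlap for 1 of the 10, Bbc3, which was lower in adult LICs, against 19.6% of all genes in either direction and 7.67% lower in adult LICs. Without neonatal replicate 4 they did not overlap for Bak1, higher in adult LICs, and Bbc3, lower in adult LICs, against 50.6% of all genes (25.6% higher and 25% lower), so a gap between the groups was common there. In simulated counts of these libraries (13001 genes) edgeR called 1, 12, 30 and 45 of 50 genes changed by 1, 2, 3 and 5 on the log2 scale. Without neonatal replicate 4 (13497 genes) it called 3, 23, 35 and 46 of 50. Of unchanged genes it called 6 of 12806 on 6 libraries and 7 of 13301 without that replicate. These numbers were not split by expression level. On 6 libraries all members but Bbc3 had log2 fold changes under 1 in size, where calls of changed genes were rare. Without neonatal replicate 4 Bcl2 also reached that size, at -1.01.

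**Figure D2:**
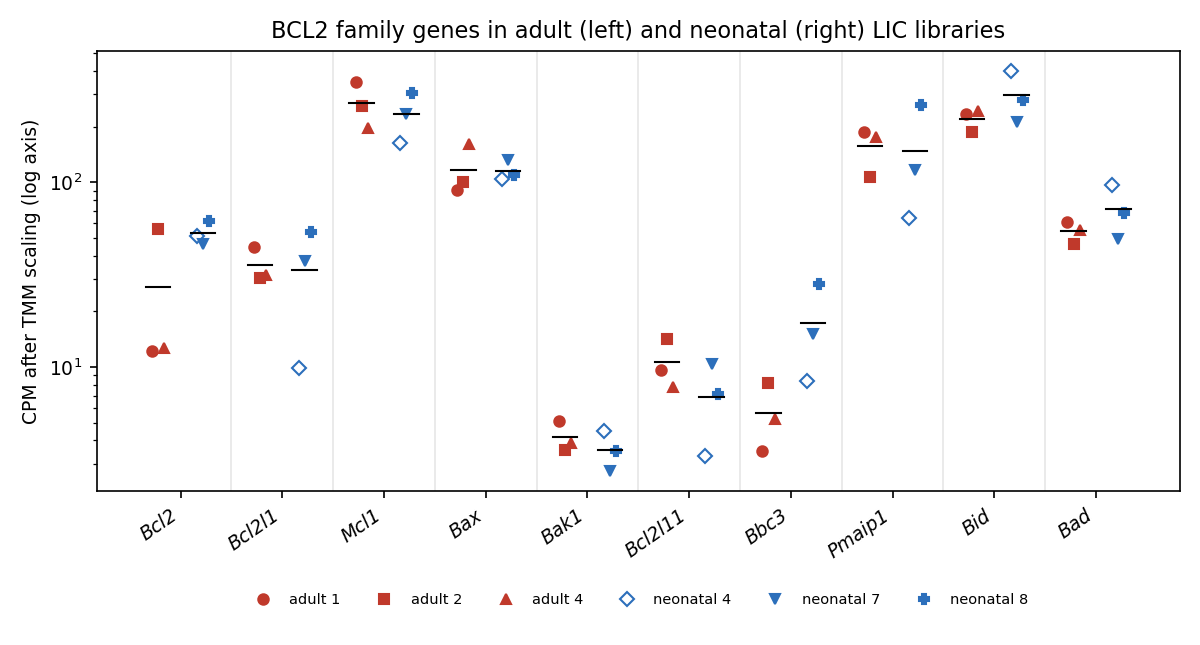
CPM of the 10 BCL2 family genes on a log axis, with adult libraries (red) left and neonatal libraries (blue) right, a short line for the group mean, and an open diamond for the shallow neonatal replicate 4. The groups overlap for 9 genes and lie apart for Bbc3, by a narrow gap between adult replicate 2 at 8.23 CPM and neonatal replicate 4 at 8.37 CPM.

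Among the pro-survival genes, Mcl1 and Bcl2l1 had log2 fold changes near 0 with wide intervals, and Bcl2 varied most among the adult libraries. Bcl2 (chromosome 1, 106538179 to 106714290), the founding member of the family, stood at 12.2, 56.1 and 12.6 CPM in the adult replicates 1, 2 and 4, against 51.4, 46.2 and 61.4 CPM in neonatal replicates 4, 7 and 8. Adult replicate 2 lay within the neonatal range and 4.60-fold above adult replicate 1, so the groups overlapped. For Bcl2 the log2 fold change was -0.97 ± 0.62 (SE, 95% interval -2.40 to 0.45, edgeR adjusted p = 0.603), and -1.01 without neonatal replicate 4 (edgeR adjusted p = 0.384). Without adult replicate 2 it was -2.09 (adjusted p = 0.257 with edgeR, and 0.175 to 0.904 over the 20 alternatives). Cd34, a progenitor surface antigen, showed adult replicate 2 apart in the same way, at 8.16, 105 and 12.6 CPM in the adult replicates 1, 2 and 4 and 396, 643 and 662 CPM in neonatal replicates 4, 7 and 8; its part in the Bcl2 values was not tested.

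Mcl1 (chromosome 3, 95658721 to 95663178) encodes a short-lived pro-survival protein that myeloid progenitors need. It stood at 349.9, 259 and 197 CPM in the adult replicates 1, 2 and 4, against 163.5, 234 and 304 CPM in neonatal replicates 4, 7 and 8. The neonatal range overlapped most of the adult one. For Mcl1 the log2 fold change was 0.20 ± 0.36 (SE, 95% interval -0.63 to 1.03, edgeR adjusted p = 0.887) and -0.014 without neonatal replicate 4 (95% interval -0.68 to 0.65).

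Bcl2l1 (chromosome 2, 152780668 to 152831682), whose main product is BCL-XL, stood at 44.5, 30.4 and 31.5 CPM in the adult replicates 1, 2 and 4, against 9.86, 37.4 and 53.6 CPM in neonatal replicates 4, 7 and 8. Neonatal replicate 4 was the low one, with 33 counts and an exact Poisson 95% interval of 6.79 to 13.9 CPM, which covers counting error only. For Bcl2l1 the log2 fold change was 0.06 (95% interval -1.23 to 1.36, edgeR adjusted p = 0.979) and turned to -0.37 without that library (edgeR adjusted p = 0.409). Gene counts do not separate the long and short products of Bcl2l1, which have opposite roles.

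Of the pore-forming effectors, Bax was abundant and Bak1 scarce in every library. Bax (chromosome 7, 45461695 to 45466898) stood at 90.3, 100.1 and 160.3 CPM in the adult replicates 1, 2 and 4, against 104, 132 and 109 CPM in neonatal replicates 4, 7 and 8. The neonatal values lay inside the adult range. For Bax the log2 fold change was 0.02 ± 0.32 (SE, 95% interval -0.72 to 0.77, edgeR adjusted p = 0.988), and -0.055 without neonatal replicate 4 (edgeR adjusted p = 0.916), so its sign differed between fits. Bak1 (chromosome 17, 27019812 to 27028626) stood at 5.11, 3.57 and 3.87 CPM in the adult replicates 1, 2 and 4, against 4.48, 2.72 and 3.51 CPM in neonatal replicates 4, 7 and 8. Without neonatal replicate 4, where Bak1 had 15 counts, the adult values all lay above the neonatal ones, by a smallest gap of 3.57 to 3.51 CPM. Bak1 had a log2 fold change of 0.25 (95% interval -0.91 to 1.40, edgeR adjusted p = 0.905) on 6 libraries and 0.41 (edgeR adjusted p = 0.613) without that replicate.

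Among the BH3-only genes Bbc3 (chromosome 7, 16309583 to 16318334) stood at 3.52, 8.23 and 5.21 CPM in the adult replicates 1, 2 and 4, against 8.37, 15.02 and 28.2 CPM in neonatal replicates 4, 7 and 8. Every adult library was under every neonatal library. The value of neonatal replicate 4 rests on 28 counts, and its exact Poisson 95% interval of 5.56 to 12.1 CPM includes that of adult replicate 2. The log2 fold change was -1.62 ± 0.57 (SE, edgeR unadjusted p = 0.0220, adjusted p = 0.319), which is 3.07-fold lower in adult LICs, and ranked 915 by p-value among the 13272 genes. Without neonatal replicate 4 it was -1.95 ± 0.48 (SE, edgeR adjusted p = 0.0589, limma voom 0.0562 and DESeq2 0.00167). Without neonatal replicate 8, the highest library, it was -1.06 (adjusted p = 0.697 with edgeR, and 0.00167 to 0.697 over the 20 alternatives). All 20 alternatives kept Bbc3 lower in adult LICs. The summed level of 11 neutrophil marker genes was 1946 to 15144 CPM in adult and 150 to 371 CPM in neonatal libraries, between the groups opposite in direction to Bbc3 (11 of 12 listed genes in the table, 3 of them at 0 in neonatal replicate 4 and 1 at 0 in neonatal replicate 8). Among the adult libraries both this sum and Bbc3 were highest in adult replicate 2. The sum was lowest in adult replicate 4 and Bbc3 in adult replicate 1. A list of 9 macrophage genes summed to 227 to 805 CPM in adult and 302 to 564 CPM in neonatal libraries, but its genes differed in direction. Of the 9, 7 had a positive and 2 a negative log2 fold change (median 2.97, and 2.73 without neonatal replicate 4). Vcam1 was at 2.97 (2.73 without that replicate) and Cd68 at -1.56 (-1.60 without it). The part of neutrophils and macrophages in the Bbc3 values was not tested.

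The promoter of Bbc3 is shown because the log2 fold change of this gene stood furthest from 0. RefSeq (GRCm38.p6, the assembly of mm10) places 3 starts on the plus strand. The 250 bases before the start that the count table also uses are given first and those before the next start downstream second, with capitals for matches to the motifs named after them.
Bbc3 first start (chr7:16309333-16309582): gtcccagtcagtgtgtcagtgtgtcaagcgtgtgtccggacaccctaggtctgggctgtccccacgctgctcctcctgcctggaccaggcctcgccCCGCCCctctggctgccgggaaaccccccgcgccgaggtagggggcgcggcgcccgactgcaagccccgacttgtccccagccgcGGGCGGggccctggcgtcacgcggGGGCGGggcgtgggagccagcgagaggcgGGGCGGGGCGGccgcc
Bbc3 next start (chr7:16310011-16310260): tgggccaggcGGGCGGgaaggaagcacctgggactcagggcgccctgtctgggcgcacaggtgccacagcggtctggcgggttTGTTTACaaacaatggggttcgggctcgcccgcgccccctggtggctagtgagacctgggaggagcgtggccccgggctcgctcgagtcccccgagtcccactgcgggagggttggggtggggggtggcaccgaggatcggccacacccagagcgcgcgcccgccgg
Both strands were searched for the GC box GGGCGG, the FOXO core GTAAACA, the E-box CACGTG, the cyclic AMP element TGACGTCA, an E2F site TTTCGCGC and the p53 half-site. The first window held 5 GC boxes, some of them overlapping, and the second held 1 GC box and 1 FOXO core, 167 bases before its start. The window of the third start, chr7:16310181-16310430, overlaps the second and held 7 GC boxes and 1 E-box. Of all 32851 windows of this length before annotated starts, which overlap for genes with several starts, 32.7% held a GC box, 3.17% a FOXO core, 6.02% an E-box, 1.55% the cyclic AMP element, 0.256% the E2F site and 7.13% the p53 half-site. Among 15 windows of 9 family genes, 10 held a GC box, 2 a FOXO core (Bbc3 and Bcl2l11), 2 an E-box (Bax and the third Bbc3 window), 1 an E2F site (Bcl2l1), 1 a p53 half-site (Bax) and 0 the cyclic AMP element. Matches are descriptions of these letters and not binding sites. Foxo1, which encodes a FOXO factor, a family known to switch on Bcl2l11 and Bbc3, stood at 5.21, 4.73 and 4.29 CPM in the adult replicates 1, 2 and 4, against 2.99, 10.8 and 21.9 CPM in neonatal replicates 4, 7 and 8 (log2 fold change -1.35 ± 0.67, SE, adjusted p = 0.489 with edgeR). The groups of Foxo1 did not overlap once neonatal replicate 4 was left out, and the value was -1.79 (edgeR adjusted p = 0.0539, and 0.000744 to 0.874 over the 20 alternatives). Without that replicate 25% of all genes lay lower in every adult library. The part of Foxo1 in the Bbc3 and Bcl2l11 values was not tested.

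Bcl2l11 (chromosome 2) encodes BIM, the BH3-only protein that follows cytokine withdrawal, and it pointed the other way from Bbc3. It stood at 9.69, 14.2 and 7.84 CPM in the adult replicates 1, 2 and 4, against 3.29, 10.3 and 7.13 CPM in neonatal replicates 4, 7 and 8. The lowest value, in neonatal replicate 4, rests on 11 counts, and the groups overlapped. BIM transcripts differed by a log2 fold change of 0.58 ± 0.52 (SE, adjusted p = 0.735 with edgeR), and 0.27 without that replicate (edgeR adjusted p = 0.706).

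Pmaip1 (chromosome 18, 66458604 to 66465558) encodes NOXA, a p53-induced partner of MCL1. It stood at 188, 107 and 175 CPM in the adult replicates 1, 2 and 4, against 64.0, 117 and 262 CPM in neonatal replicates 4, 7 and 8. The neonatal libraries spanned a 4.10-fold range that enclosed the adult one. For Pmaip1 the log2 fold change was 0.08 (95% interval -1.12 to 1.29, edgeR adjusted p = 0.972) and turned to -0.29 without neonatal replicate 4 (edgeR adjusted p = 0.665).

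Bid and Bad had nearly the same pattern across the libraries. Bid (chromosome 6, 120893119 to 120916820), which caspase-8 cleaves to link death receptors to mitochondria, stood at 233, 186 and 245 CPM in the adult replicates 1, 2 and 4, against 401, 213 and 278 CPM in neonatal replicates 4, 7 and 8. Bad (chromosome 19, 6941855 to 6951893), which survival kinases inactivate, stood at 61.1, 46.1 and 55.4 CPM in the adult replicates 1, 2 and 4, against 97.1, 49.4 and 68.4 CPM in neonatal replicates 4, 7 and 8. For both genes neonatal replicate 4 was the highest library and adult replicate 2 the lowest. Bid had a log2 fold change of -0.42 ± 0.33 (SE, adjusted p = 0.690 with edgeR) and -0.16 without neonatal replicate 4. Bad had one of -0.40 ± 0.34 (SE, edgeR adjusted p = 0.719) and -0.13 without that replicate.

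Levels of different genes were compared per exon length, as TPM computed from the counts and the deposited exon lengths. Bid, Bax, Mcl1, Pmaip1 and Bad together made up most of the family's transcripts in every library. Bid averaged 203 ± 32.5 TPM in adult and 257 ± 27.8 TPM in neonatal LICs, and Bax 236 ± 89.0 TPM in adult and 234 ± 89.0 TPM in neonatal LICs (SD, n = 3 each). Mcl1 averaged 132 ± 30.6 TPM in adult and 122 ± 60.2 TPM in neonatal LICs, and Pmaip1 102 ± 27.8 TPM in adult and 105 ± 83.7 TPM in neonatal LICs (SD, n = 3 each). These neighbours in the order overlapped in their spread. Bad followed at 64.7 ± 8.08 TPM in adult and 80.6 ± 10.97 TPM in neonatal LICs and Bcl2l1 at 25.8 ± 4.39 TPM in adult and 27.4 ± 20.3 TPM in neonatal LICs (SD, n = 3 each). The TPM of Bad used all its 1452 exon bases, also the 517 shared with Gpr137, and may be too low. Its place in this order and its share of the family are uncertain. Bcl2, Bbc3, Bcl2l11 and Bak1 were the scarce members. Bcl2 averaged 6.07 ± 5.69 TPM in adult and 11.9 ± 3.93 TPM in neonatal LICs and Bbc3 4.997 ± 2.18 TPM in adult and 16.3 ± 11.5 TPM in neonatal LICs (SD, n = 3 each). Bcl2l11 averaged 3.63 ± 1.12 TPM in adult and 2.61 ± 1.76 TPM in neonatal LICs and Bak1 3.61 ± 0.538 TPM in adult and 2.97 ± 0.427 TPM in neonatal LICs (SD, n = 3 each).

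**Figure D3:**
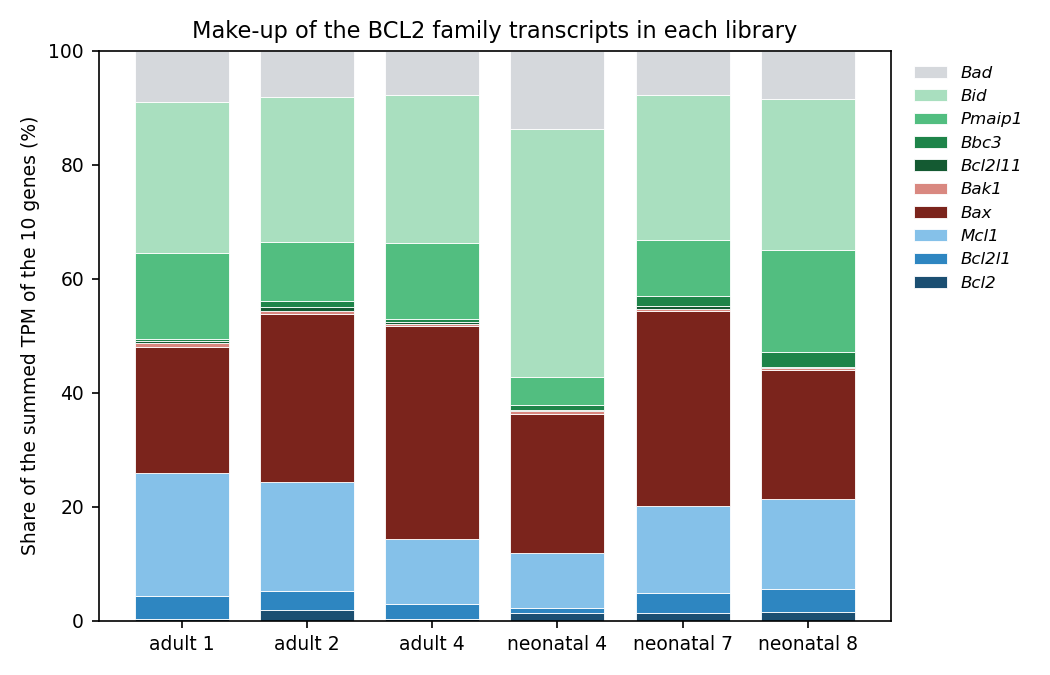
Share of each gene in the summed TPM of the 10 BCL2 family genes, in percent, for each library, with adult libraries left and neonatal libraries right. Bid took 25.3 to 26.4% in the adult libraries, 43.5% in neonatal replicate 4 and 25.5 and 26.5% in neonatal replicates 7 and 8.

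By role, the pro-survival genes held 25.9, 24.3 and 14.4% of the family's TPM in adult replicates 1, 2 and 4, against 11.8, 20.1 and 21.3% in neonatal replicates 4, 7 and 8. The effectors held 22.8, 30.1 and 37.6% in these adult libraries, against 24.9, 34.6 and 23.0% in the neonatal ones. BH3-only genes held 51.3, 45.7 and 48.0% in the adult libraries, against 63.2, 45.3 and 55.7% in the neonatal ones. The shares of every role overlapped between the groups. Ratios of Bbc3 to other members reuse the values by which it was singled out, so they are description and no separate support. The TPM ratio of Bbc3 to Bcl2l11 was 0.926, 1.48 and 1.69 in adult replicates 1, 2 and 4, against 6.49, 3.71 and 10.1 in neonatal replicates 4, 7 and 8. The ratio of Bbc3 to Mcl1 was 0.0177, 0.0560 and 0.0466 in the adult libraries, against 0.0903, 0.113 and 0.164 in the neonatal ones. Both ratios were lower in every adult library than in any neonatal library, and no test was made on them. The ratio of Bcl2 to Mcl1 overlapped, at 0.0157, 0.0975 and 0.0289 in the adult libraries, against 0.142, 0.0889 and 0.0910 in the neonatal ones.

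The genes whose log2 CPM ran most like that of Bbc3 over the 6 libraries were Dhrs1, Harbi1 and Rnf145, with Pearson correlations of 0.993, 0.990 and 0.984. Dhrs1 stood at 30.7, 44.2 and 33.7 CPM in the adult replicates 1, 2 and 4, against 46.9, 56.9 and 76.2 CPM in neonatal replicates 4, 7 and 8. These 3 were picked as the closest of all genes tested outside chromosomes X and Y, so the size of the correlations is no evidence of a link. Within the family, correlations of log2 CPM ran from -0.994 for Bcl2l11 and Bid to 0.981 for Bid and Bad. Bcl2l11 and Bad were at -0.956, Bcl2l1 and Pmaip1 at 0.887, Bcl2l1 and Mcl1 at 0.837 and Bbc3 and Bcl2 at 0.800. All rest on the same 6 libraries, which share their depth and the departure of neonatal replicate 4.

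Beyond the 10, the A1 genes of the BCL2 family had higher CPM in the adult libraries. With edgeR 0 of the 4 passed the threshold on 6 libraries, against 0.0377% of all genes called higher in adult LICs. Without neonatal replicate 4, 2 passed, Bcl2a1a and Bcl2a1d, against 2.25% of all genes. Bcl2a1a and Bcl2a1d (chromosome 9) encode A1, a pro-survival protein of granulocytes and other blood cells. They lie among near-identical copies, so that reads may be split among them uncertainly and the 2 calls may not be separate results. Bcl2a1a stood at 51.6, 10.7 and 24.8 CPM in the adult replicates 1, 2 and 4, against 5.08, 2.96 and 1.59 CPM in neonatal replicates 4, 7 and 8. Bcl2a1d stood at 37.7, 9.72 and 14.6 CPM in the adult replicates 1, 2 and 4, against 2.69, 2.55 and 1.47 CPM in neonatal replicates 4, 7 and 8. Every adult library lay above every neonatal one for both, as for 12% of all genes tested. The summed level of the 4 A1 genes was 150.5, 33.9 and 54.7 CPM in the adult replicates 1, 2 and 4, against 14.0, 8.97 and 5.39 CPM in neonatal replicates 4, 7 and 8. On 6 libraries the log2 fold changes were 3.27 ± 0.72 for Bcl2a1a and 3.24 ± 0.64 for Bcl2a1d (SE, adjusted p of 0.147 and 0.140 with edgeR). Without neonatal replicate 4 both passed, at 3.66 and 3.35 (adjusted p of 0.0478 and 0.0493 with edgeR). Over the 20 alternatives the adjusted p ran from 1.54e-06 to 0.416 for Bcl2a1a and from 8.93e-06 to 0.413 for Bcl2a1d. The neutrophil marker sum was highest in adult replicate 2, at 15144 CPM, where the A1 genes were lowest among adult libraries, and 6212 CPM in adult replicate 1 and 1946 CPM in adult replicate 4; its part in the A1 values was not tested.

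**Figure D4:**
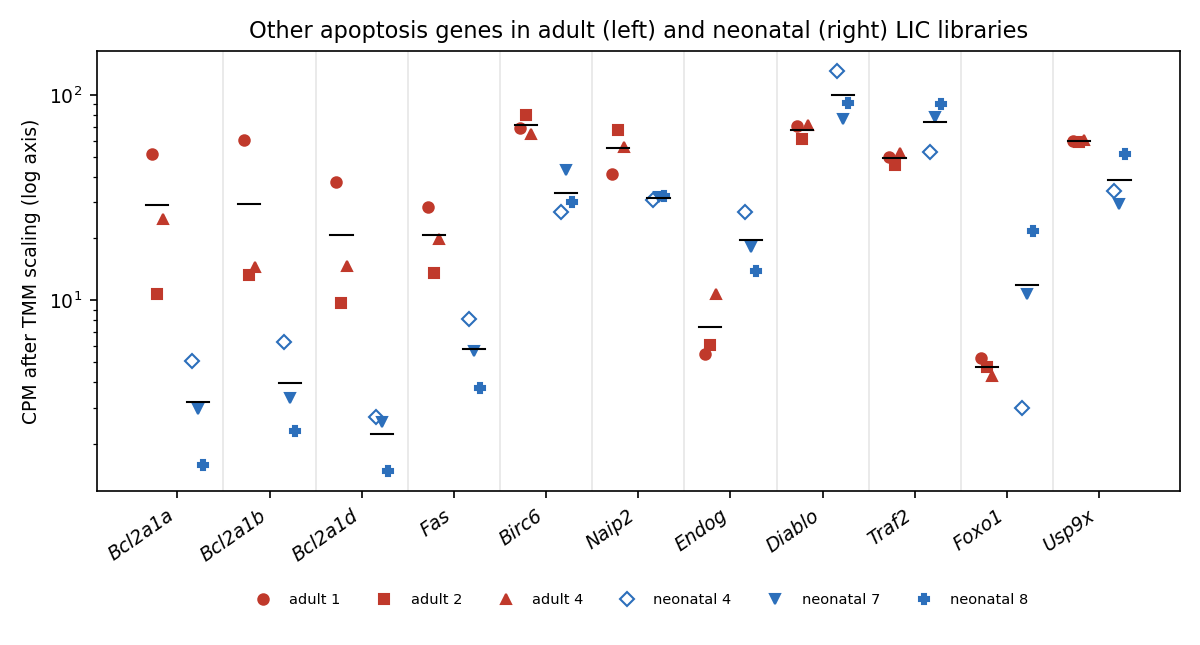
CPM of other apoptosis genes on a log axis, with adult libraries (red) left and neonatal libraries (blue) right, a short line for the group mean, and an open diamond for neonatal replicate 4. All 3 adult libraries lie above the neonatal ones for the A1 genes, Fas, Birc6, Naip2 and Usp9x, under them for Endog, Diablo and Traf2, and overlap them for Foxo1. Over all genes tested, 12% had every adult library above and 7.67% every adult library under the neonatal ones, and these genes were picked for their small p-values.

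Other genes of the apoptosis pathway were counted in 5 lists with 64 genes, of which 59 were tested. On 6 libraries edgeR called 0 of them, with 10 of 59 at an unadjusted p under 0.05, against 11.9% of all genes. DESeq2 called 8, against 5.75% of all genes, limma voom 0, against 0.0527%, and limma voom with quality weights 8, against 7.96%. Without neonatal replicate 4 edgeR called 3 of 59 higher in adult LICs, against 2.25% of all genes, and 0 lower, against 3.72%. DESeq2 then called 16, against 25% of all genes, and limma voom 0, against 6.7%. The 3 were Bcl2a1a, Bcl2a1d and Fas. Copies of A1, among which reads may be split uncertainly, count as separate genes in these numbers and raise them. On 6 libraries the median log2 fold change was 0.10 over the 59 genes, against -0.05 over all genes, and without neonatal replicate 4 it was 0.17, against 0.05.

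Among death receptor genes (11 of 12 tested, 6 with a positive log2 fold change, median 0.16 in both fits), Fas stood at 28.6, 13.6 and 19.9 CPM in the adult replicates 1, 2 and 4, against 8.07, 5.64 and 3.72 CPM in neonatal replicates 4, 7 and 8. FAS is the receptor whose ligand starts caspase-8, the enzyme that cleaves BID. The change of Fas on the log2 scale was 1.86 ± 0.47 (SE, adjusted p = 0.174 with edgeR), and it rose in adult LICs without neonatal replicate 4, by 2.13 (edgeR adjusted p = 0.0474, range over 20 alternatives 5.65e-05 to 0.480). Traf2, an adaptor of the TNF receptors, had a mean of 49.2 ± 3.13 CPM in the adult libraries, against 73.7 ± 19.1 CPM in the neonatal libraries (SD, n = 3 per group, adjusted p = 0.511 with edgeR). Leaving out neonatal replicate 4 gave -0.79 on the log2 scale (adjusted p = 0.0524 with edgeR, and 0.000812 to 0.866 over the 20 alternatives).

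Of 8 inhibitor of apoptosis genes tested, 7 had a positive log2 fold change (median 0.67, against -0.05 over all genes), as had 6166 of the 13272 genes. Without neonatal replicate 4 all 8 were positive (median 0.73), as were 7209 of 13856 genes. With edgeR 0 of the 8 passed on 6 libraries, against 0.0527% of all genes, and 0 without neonatal replicate 4, against 5.98%. At an unadjusted p under 0.05 edgeR gave 2 on 6 libraries, against 11.9% of all genes, and 4 without neonatal replicate 4, against 29.5%. DESeq2 called 1 (Birc6), against 5.75% of all genes, and quality weights 2 (Birc6 and Xiap), against 7.96%. DESeq2 without neonatal replicate 4 called 4, against 25%, and limma voom on 6 libraries 0, against 0.0527%. All those called were higher in adult LICs. Xiap lies on chromosome X, and age group and sex cannot be told apart here. Birc6, which encodes a giant ubiquitin ligase that binds caspases, had a mean of 71.1 ± 8.19 CPM in the adult libraries, against 33.4 ± 8.49 CPM in the neonatal libraries (SD, n = 3 per group, log2 fold change 1.09, adjusted p = 0.217 with edgeR). With neonatal replicate 4 left out it was 0.95 on the log2 scale (adjusted p = 0.0602 with edgeR, and 0.00306 to 0.734 over the 20 alternatives). Naip2, a sensor of bacterial proteins in the same family, had a mean of 55.0 ± 13.2 CPM in the adult libraries, against 31.6 ± 0.802 CPM in the neonatal libraries (SD, n = 3 per group, adjusted p = 0.363 with edgeR). It was 0.77 on the log2 scale without neonatal replicate 4 (adjusted p = 0.113 with edgeR, and 0.0368 to 0.787 over the 20 alternatives), and close paralogues may share its reads.

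In the apoptosome and caspase list 16 of 17 genes were tested, 7 with a positive log2 fold change (median -0.18, and -0.019 without neonatal replicate 4). With edgeR 0 passed on 6 libraries, against 0.0527% of all genes, and 0 without neonatal replicate 4, against 5.98%. At an unadjusted p under 0.05 edgeR gave 1 on 6 libraries, against 11.9% of all genes, and 3 without neonatal replicate 4, against 29.5%. DESeq2 called 1 (Endog, lower in adult LICs), against 5.75% of all genes, and quality weights 1 (Casp4, higher), against 7.96%. DESeq2 without neonatal replicate 4 called 3, against 25%, and limma voom on 6 libraries 0, against 0.0527%. Casp4 was chosen after its values were seen, as was Xiap. Endog, a nuclease gene whose product is released from mitochondria, had a mean of 7.42 ± 2.85 CPM in the adult libraries, against 19.6 ± 6.65 CPM in the neonatal libraries (SD, n = 3 per group, log2 fold change -1.39, adjusted p = 0.277 with edgeR). Leaving out neonatal replicate 4 gave -1.12 on the log2 scale (adjusted p = 0.133 with edgeR, and 0.0426 to 0.610 over the 20 alternatives). Diablo, whose product frees caspases from their inhibitors, had a mean of 67.7 ± 5.90 CPM in the adult libraries, against 99.9 ± 28.1 CPM in the neonatal libraries (SD, n = 3 per group, adjusted p = 0.539 with edgeR). With neonatal replicate 4 left out it was -0.33 on the log2 scale (adjusted p = 0.284 with edgeR, and 0.266 to 0.893 over the 20 alternatives). Among 11 genes that act on BCL2 family genes or proteins, 6 had a positive log2 fold change (median 0.03, and 0.20 without neonatal replicate 4). With edgeR 0 passed on 6 libraries, against 0.0527% of all genes, and 0 without neonatal replicate 4, against 5.98%. At an unadjusted p under 0.05 edgeR gave 0 on 6 libraries, against 11.9% of all genes, and 2 without neonatal replicate 4, against 29.5%. DESeq2, limma voom and quality weights called 0, against 5.75%, 0.0527% and 7.96% of all genes. DESeq2 without neonatal replicate 4 called 1 (Foxo1), against 25%. Usp9x on chromosome X, whose product stabilises MCL1 protein, had a mean of 59.6 ± 0.603 CPM in the adult libraries, against 38.5 ± 11.8 CPM in the neonatal libraries (SD, n = 3 per group, adjusted p = 0.499 with edgeR). Leaving out neonatal replicate 4 gave 0.54 on the log2 scale (adjusted p = 0.240 with edgeR, and 0.160 to 0.968 over the 19 alternatives that held it, where its sign varied). The remaining BCL2 relatives, with the A1 genes included, gave 13 tested genes of 16, of which 7 had a positive log2 fold change (median 0.19, and 0.55 without neonatal replicate 4). At an unadjusted p under 0.05 edgeR gave 6 of 13 on 6 libraries, against 11.9% of all genes. The 6 were Bik, Bnip3 and the A1 genes, whose copies may share reads, so they are not 6 separate results. DESeq2 called 3 A1 genes higher and Bik and Bnip3 lower in adult LICs, against 5.75% of all genes, and limma voom 0, against 0.0527%. Bik, at 0, 9 and 1 counts in adult replicates 1, 2 and 4, had a log2 fold change of -4.78 (-4.20 without neonatal replicate 4). Bnip3 had one of -1.34 (-1.06 without that replicate). Both were chosen after their values were seen.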

How the data were processed

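Per the file headers, the authors counted reads per gene without normalization, and deposited those counts, with featureCounts 1.5.1 on primary alignments, a UCSC mm10 gene annotation and no strand option. Per the labels' protocols RNA was polyA-selected and read single-end. Trimmomatic, TopHat, Bowtie and DESeq2 stand in the submitters' processing notes with no version. The deposited table also gives each gene's exon length, an other value that was used for TPM. All 6 columns of counts were used.

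From these counts edgeR 4.0.16 in R 4.3.3 compared adult with neonatal LICs (filterByExpr with a minimum count of 10, TMM, robust quasi-likelihood F test, Benjamini-Hochberg over all genes tested, threshold 0.05). SE is the absolute log2 fold change divided by the square root of F, an approximate value, and intervals are 95% from it. CPM used TMM-scaled totals, and log2 CPM a prior count of 2. Poisson intervals cover counting error only. Alternatives were DESeq2 1.42.0, limma 3.58.1, other scalings and filters, thinning, and each library left out. Fits were tested on simulated counts.

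Members and lists were chosen with earlier results of these data known. Genes named beyond the 10 were, per list, those past the threshold, up to 4 past it without neonatal replicate 4, and the 2 with the smallest p, and the 3 genes most correlated with the member of smallest p. This rule does not cover marker genes, nor Casp4, Xiap, Bik and Bnip3.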

Additional observations from a re-analysis of the deposited data

How the results depend on the processing

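No paired analysis was possible because the groups share only 1 replicate number. Of 200 values of the 10 genes over 20 alternatives, 169 kept direction and side of the threshold, 29 changed sign and 2, both for Bbc3, passed it (-1.82 with limma voom quality weights, adjusted p = 0.0456, and -1.95 with DESeq2 without neonatal replicate 4). Those 2 settings called 1 of the 10 genes and the others 0. The cause was not tested. Bcl2, Bak1, Bcl2l11, Bbc3, Bid and Bad kept their direction under all 20 alternatives.

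Signs turned for genes near 0. Bcl2l1 was at -0.077 with limma voom, -0.29 with quality weights, -0.10 thinned, and -0.37 with DESeq2 or limma voom without neonatal replicate 4. Mcl1 was at -0.015 and -0.040, and Pmaip1 at -0.29 and -0.21, in those 2 fits. Pmaip1 was at -0.17 with quality weights. Bax was at -0.010 with DESeq2, -0.0097 with RLE scaling, -0.045 with limma voom, -0.13 with quality weights, -0.076 thinned, -0.016 with exon length offsets, and -0.060 and -0.095 with DESeq2 and limma voom without neonatal replicate 4. With 1 library left out, Bcl2l1 ran from -0.37 to 0.56, Mcl1 from -0.064 to 0.43, Bax from -0.27 to 0.15, Pmaip1 from -0.29 to 0.79, Bcl2 from -2.09 to -0.64 and Bbc3 from -1.99 to -1.06.

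All genes called numbered 7, and 759 with DESeq2, 1056 with quality weights, 0 without chromosomes X and Y, 12 thinned, 3320 and 928 with DESeq2 and limma voom without neonatal replicate 4, and 1 to 828 with 1 library left out. Other apoptosis genes called numbered 0, and 8 with DESeq2, 8 with quality weights, 16 with DESeq2 without neonatal replicate 4 and 0 to 3 with 1 library left out. The fits without neonatal replicate 4 by another tool and the exon length offsets were chosen after seeing the data. With 1 library left out the smaller group has 2 libraries. Depth limits Bak1, Bcl2l11, Bbc3 and Bcl2l1 in neonatal replicate 4, at 15, 11, 28 and 33 counts.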
